A study of Mus musculus with 45 samples.

Results

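The genes described here are the intestinal disaccharidases Mgam, Sis, Lct and Treh, the hexose transporters Slc5a1, Slc2a2 and Slc2a5, and the sugar-handling enzymes Khk and G6pc. These 9 genes were picked by name out of 47729 genes in the deposited tables, with earlier results of these data known. All 9 were among the 14020 genes that passed the filter on low counts. RNA was sequenced from FACS-sorted small intestinal tuft cells of male C57BL/6J mice that arrived at 5 weeks of age and were housed at thermoneutrality. Tuft cells are rare chemosensory epithelial cells, and each library came from the sorted small intestinal cells of a single mouse. Mice received a reference fat diet (RFD, 10% fat) or a high fat diet (HFD, 60% fat), with 11 libraries on RFD and 11 on HFD in the STF set and 11 on RFD and 12 on HFD in the LTF set. The labels give 9 weeks of feeding for all 45 libraries, and the study's methods give 9 weeks for the STF set and 22 weeks for the LTF set; the latter is used here. HFD contains almost no starch, whereas RFD is rich in starch. The listed sugar content is somewhat higher in HFD than in RFD.

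Dietary starch and disaccharides are cut to single sugars at the brush border, the microvillus-covered surface of absorptive enterocytes. Maltase-glucoamylase (Mgam) and sucrase-isomaltase (Sis) release glucose from starch fragments and sucrose, lactase (Lct) splits milk sugar, and trehalase (Treh) splits trehalose. The sodium-coupled transporter SGLT1 (Slc5a1) then takes up glucose and galactose, GLUT5 (Slc2a5) takes up fructose, and GLUT2 (Slc2a2) passes sugars to the blood side. Ketohexokinase (Khk) begins the breakdown of fructose, and glucose-6-phosphatase (G6pc) forms free glucose. These genes are known as enterocyte genes rather than tuft cell genes, so the levels of enterocyte and tuft cell markers are given beside the results.

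The sorted libraries carried RNA of several epithelial cell types. Dclk1, which marks tuft cells, had a median of 837 TPM (a level scaled to transcript length and library total) in the 9-week RFD group, 366 TPM on HFD, and 1089 and 966 TPM at 22 weeks. It lay under 100 TPM in 1 RFD and 4 HFD libraries at 9 weeks and in 1 HFD library at 22 weeks. The enterocyte genes Fabp1 and Apoa1 were high in every library, at 1390 TPM or more and at 183 TPM or more. CPM are reads scaled to the library total times a normalisation factor, not to length, and so are not plain shares of reads. Summed CPM of 15 other enterocyte brush border genes had medians of 1761 (RFD) and 1546 (HFD) after 9 weeks of feeding and 3784 (RFD) and 3295 (HFD) after 22. Markers of Paneth cells reached 600172 CPM in a 9-week HFD library, while their 9-week medians were 2599 CPM (RFD) and 26152 CPM (HFD). Library totals ranged from 189340 to 4690213 reads assigned to genes, and 2 libraries, both at 9 weeks, had under 500000. In bulk samples of this kind, fewer cells of a type and less RNA per cell cannot be told apart.

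In GENCODE vM21 (GRCm38), Mgam (ENSMUSG00000068587) lies at chr6:40628831-40769123, Sis (ENSMUSG00000027790) at chr3:72888557-72967863, Slc5a1 (ENSMUSG00000011034) at chr5:33104219-33162870 and Treh (ENSMUSG00000032098) at chr9:44673233-44686305. Treh overlaps Phldb1 on the other strand, and reads of the overlap cannot be told apart in this unstranded protocol. The stretches of DNA just before these genes, from 250 bases before to 50 bases after the annotated start, were read from RefSeq for GRCm38.p6, in which all 9 genes had an entry. Mgam and Slc5a1 are shown because they passed the test of diet, Sis because it is the most abundant disaccharidase, and Treh because it did not share their direction at 22 weeks. Each is written 5′ to 3′ on the strand of its gene, at chr6:40628581-40628880 (plus strand) for Mgam, chr5:33103969-33104268 (plus) for Slc5a1, chr3:72967814-72968113 (minus) for Sis and chr9:44672983-44673282 (plus) for Treh. Capitals mark matches on either strand to CACGTG (the E-box, used by the glucose-responsive factor ChREBP and by many other factors), GTTAAT (part of the HNF1 site), TTTATG (CDX) and GATAA (GATA).
Mgam: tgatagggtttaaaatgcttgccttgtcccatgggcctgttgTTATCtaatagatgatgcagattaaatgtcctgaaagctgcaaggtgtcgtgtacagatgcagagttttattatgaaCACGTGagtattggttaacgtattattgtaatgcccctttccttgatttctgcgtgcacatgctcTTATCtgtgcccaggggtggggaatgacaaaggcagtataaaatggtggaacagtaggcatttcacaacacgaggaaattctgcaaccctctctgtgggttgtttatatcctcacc
Slc5a1: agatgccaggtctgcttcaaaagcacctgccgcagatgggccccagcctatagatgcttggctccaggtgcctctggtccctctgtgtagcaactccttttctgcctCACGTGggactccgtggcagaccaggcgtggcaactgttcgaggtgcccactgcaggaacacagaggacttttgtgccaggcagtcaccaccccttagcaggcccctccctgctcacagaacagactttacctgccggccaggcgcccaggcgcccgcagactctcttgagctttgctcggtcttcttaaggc
Sis: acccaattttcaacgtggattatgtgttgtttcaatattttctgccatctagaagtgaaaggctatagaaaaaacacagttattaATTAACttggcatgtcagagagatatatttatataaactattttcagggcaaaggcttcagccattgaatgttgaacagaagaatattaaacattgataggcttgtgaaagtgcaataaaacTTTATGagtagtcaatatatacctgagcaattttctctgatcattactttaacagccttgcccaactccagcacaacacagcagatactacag
Treh: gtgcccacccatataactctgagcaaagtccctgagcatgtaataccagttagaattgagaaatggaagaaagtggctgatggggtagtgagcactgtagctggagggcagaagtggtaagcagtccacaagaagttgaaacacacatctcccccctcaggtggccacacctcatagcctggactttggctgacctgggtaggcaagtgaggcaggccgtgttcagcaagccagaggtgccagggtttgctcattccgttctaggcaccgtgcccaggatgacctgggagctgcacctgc
CACGTG was present in 3 of the 9 promoters, those of Mgam (131 bases before the start), Slc5a1 (143 bases before) and Khk (71 bases before), and in 7.15% of 32851 promoters of the same length. For Khk, Slc2a5 and G6pc the start used lies inside the GENCODE vM21 gene, and positions are counted from that start. GTTAAT was present in Sis, Khk and G6pc (7.1% of all promoters), TTTATG in Sis and Lct (11.9%), and GATAA in Mgam, Lct and Slc2a2 (25.4%). No motif overlapped another in the 4 promoters shown. The promoters of Treh and Slc2a5 held none of the 4 motifs in this window. A match of letters is a description of the window and does not show that a factor binds there.

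At the level of RNA per transcript length, the 9 genes spanned a wide range and Sis, Khk and Slc5a1 were the 3 highest in all 4 groups. On RFD at 9 weeks, median TPM was 157 for Sis, 123 for Khk, 99.5 for Slc5a1 and 49.1 for Mgam. Slc2a5 (17.7), Treh (17.3), Slc2a2 (11.9) and Lct (11.4) formed a lower tier, and G6pc was near the limit of detection at 1.82 TPM. Within the lower tier, neighbours were not separated: Slc2a5 exceeded Treh in 6 of 11 libraries, and Treh exceeded Slc2a2 in 6 of 11. By contrast, Slc5a1 exceeded Mgam and Mgam exceeded Slc2a5 in all 11 libraries. On RFD at 22 weeks Sis (471 TPM) and Slc5a1 (279.8 TPM) led, and Mgam was followed by Slc2a5, Treh, Slc2a2 and Lct, as at 9 weeks. On HFD at 22 weeks Mgam stood below Treh, Slc2a5 and Lct, with a median of 22.9 TPM against 45.5 for Treh, and it did not differ in order from Lct, which exceeded it in 6 of 12 libraries. The 9 genes together took a median of 0.15% of reads on RFD and 0.0892% on HFD at 9 weeks, and of 0.389% and 0.189% at 22 weeks. Levels in the STF and LTF sets were not compared by a test, since feeding time and set cannot be told apart.

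**Figure D1:**
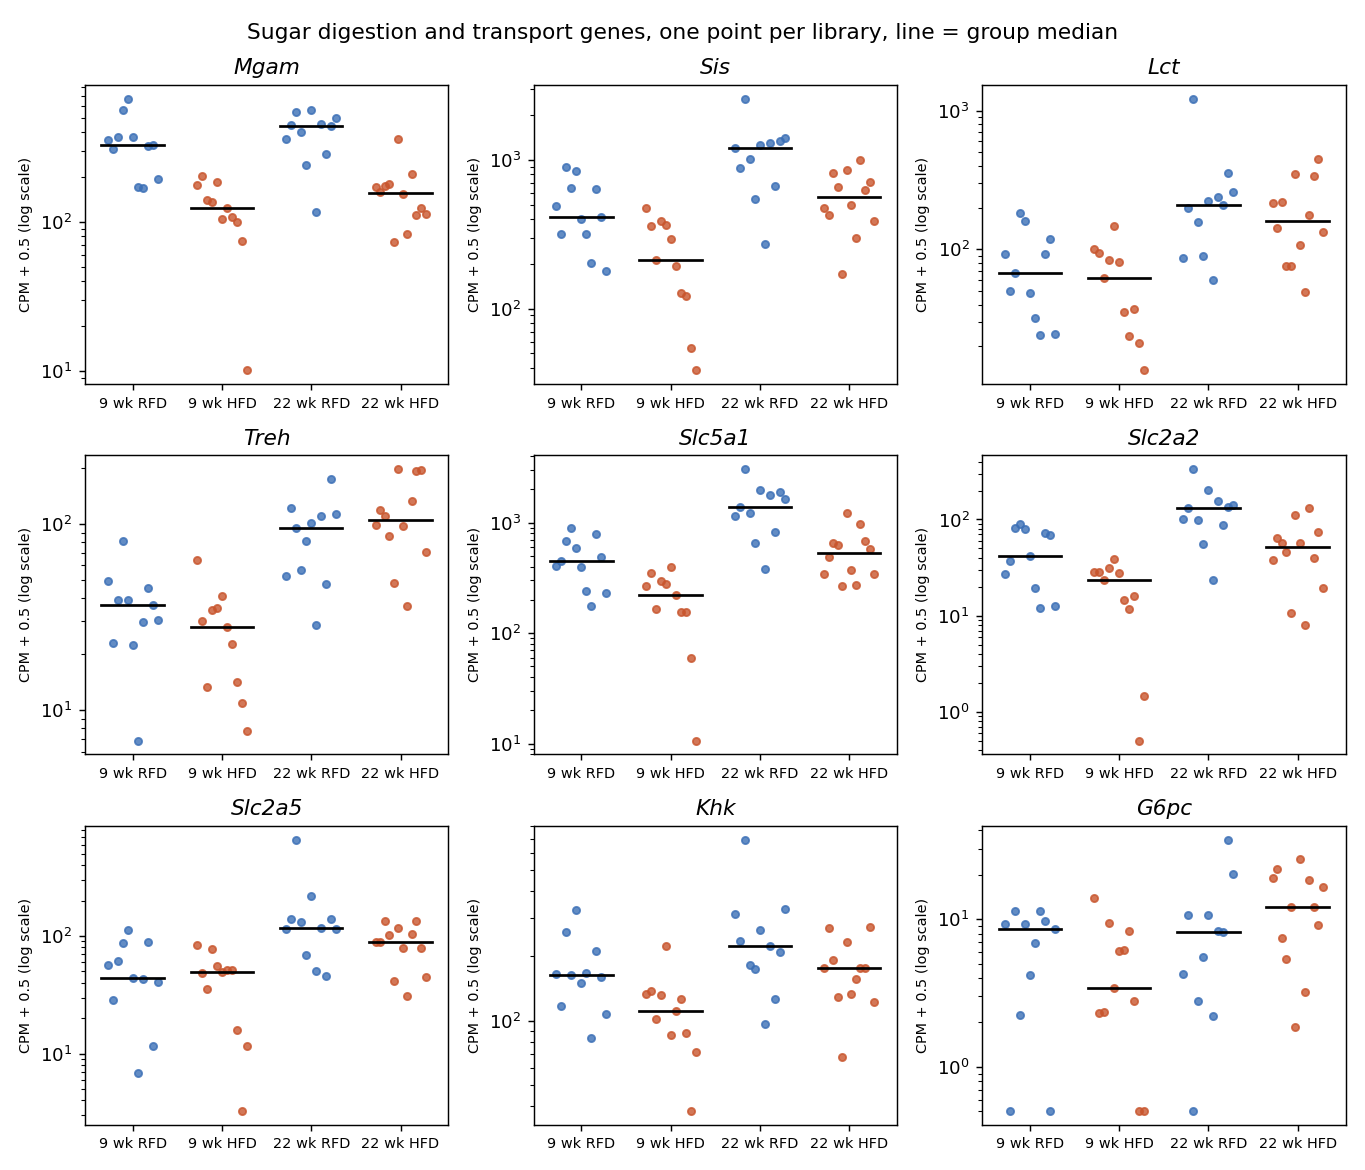
Level of each gene in each library, as CPM plus 0.5 on a log axis, by feeding time and diet; points are libraries and lines are group medians. All 11 HFD libraries at 9 weeks and all 12 at 22 weeks lie under the RFD median of Mgam and Slc5a1, whereas the diet groups overlap widely for Lct, Treh and G6pc.

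Among the disaccharidases, Mgam fell on HFD in both sets. At 9 weeks Mgam ranged from 169 to 671 CPM on RFD (median 329, n = 11) and from 9.62 to 201 CPM on HFD (median 124, n = 11). All 11 HFD libraries lay under the RFD median and 8 lay under every RFD library. The log2 fold change was -1.5 ± 0.31 (SE), a level 2.83-fold lower on HFD, with an adjusted p of 0.027 in edgeR's quasi-likelihood test. At 22 weeks Mgam ranged from 116 to 563 CPM on RFD (median 438) and from 72.9 to 357 CPM on HFD (median 156, n = 12). All 12 HFD libraries lay under the RFD median, and 4 lay under every RFD library, so the groups overlapped at their edges. The log2 fold change was -1.32 ± 0.24, or 2.49-fold lower, with an adjusted p of 0.00677.

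Sample titles fall into 3 number series that the labels do not explain, and Mgam was lower on HFD within each. The differences of mean log2(CPM + 0.5) in the 9-week set were -1.08, -1.46 and -2.53, and those in the 22-week set were -1.33, -1.36 and -1.61. Leaving out any single library kept the call in 22 of 22 fits at 9 weeks and 23 of 23 at 22 weeks. At 9 weeks the call was lost without the 5 libraries under 100 TPM of Dclk1 (log2 -1.48, adjusted p = 0.338) and with limma on log2(TPM + 1) (log2 -1.58, adjusted p = 0.177), although the size of the difference hardly moved.

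Sis was also lower on HFD, but did not pass the adjusted threshold. Its 9-week medians were 415 CPM (RFD) and 213 CPM (HFD, ranges 178 to 894 and 38 to 477), and 10 of 11 HFD libraries lay under the RFD median. The log2 fold change was -1.03 ± 0.36 with an adjusted p of 0.136. At 22 weeks medians were 1201 and 561 CPM (ranges 270.1 to 2595 and 171 to 1001), and all 12 HFD libraries lay under the RFD median. The log2 fold change was -0.98 ± 0.28 with an adjusted p of 0.139. With the number series as a term Sis was called lower in both sets (log2 -1.35 and -1.05, adjusted p = 0.0452 and 0.0393). Over all alternatives other than those without a single library, it was called in 5 of 11 at 9 weeks and 4 of 10 at 22 weeks.

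Lct and Treh did not pass the test in either set. Lct had a log2 fold change of -0.40 ± 0.39 after 9 weeks (adjusted p = 0.634) and -0.54 ± 0.43 after 22 weeks (adjusted p = 0.722). The 22-week value rested on RFD replicate 3, which stood at 1221 CPM of Lct against a group median of 209.8, and it was 0.05 without that library. The same library had reads on 8609 genes, the fewest of all 45 libraries, and 241 genes were called at 22 weeks without it. Treh ranged from 6.37 to 80.8 CPM (RFD) and from 7.21 to 63.3 CPM (HFD) in the 9-week set (log2 -0.47 ± 0.33, adjusted p = 0.473). At 22 weeks it ranged from 28.1 to 175 CPM on RFD and from 35.7 to 197 CPM on HFD, with a log2 fold change of 0.37 ± 0.28 (adjusted p = 0.707). No HFD library lay under every RFD library in either set. At 22 weeks the TPM ratio of Mgam to Treh within a library was 0.836 to 2.46 on RFD and 0.211 to 0.746 on HFD, so the groups did not overlap; this ratio was chosen after its values were seen, and 0.0214% of genes separated in the same way in their ratio to Treh. At 9 weeks the same ratio was 1.79 to 10.1 on RFD and 0.338 to 3.31 on HFD, and the groups overlapped.

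Of the glucose transporters, Slc5a1 fell on HFD at 22 weeks. Slc5a1 ranged from 383 to 3052 CPM on RFD (median 1379) and from 264 to 1209 CPM on HFD (median 532). All 12 HFD libraries lay under the RFD median and 5 under every RFD library. The log2 fold change was -1.36 ± 0.29, or 2.56-fold lower, with an adjusted p of 0.0233, and the call held in 23 of 23 fits that left out a library. Within the number series the differences were -1.61, -1.41 and -1.28. With limma on log2(TPM + 1) the log2 fold change was -1.30 and the adjusted p 0.127.

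At 9 weeks the medians of Slc5a1 were 453 CPM (RFD) and 220.3 CPM (HFD, ranges 175 to 894 and 10.1 to 393). All 11 HFD libraries lay under the RFD median, and the log2 fold change of -1.19 ± 0.38 came close to the threshold of 0.1 without passing it (adjusted p = 0.107). It passed in 4 of the 22 fits without a library. Slc2a2, the basolateral transporter, was lower by a similar amount with a wider error: log2 -1.36 ± 0.50 at 9 weeks (adjusted p = 0.158) and -1.30 ± 0.39 at 22 weeks (adjusted p = 0.167). With the number series as a term Slc2a2 was called lower at 22 weeks (log2 -1.51, adjusted p = 0.0569) and Slc5a1 at 9 weeks (log2 -1.34, adjusted p = 0.0928), and the members called lower were then 4 in each set, against 1.07% and 0.621% of all genes. Its 9-week CPM medians were 41.4 (RFD) and 23 (HFD), where 11 of 11 HFD libraries lay under the RFD median, and 130 and 50.8 at 22 weeks, where 11 of 12 did.

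The fructose transporter Slc2a5 and the fructose kinase Khk did not pass the test in either set. Slc2a5 had 9-week medians of 43.7 CPM (RFD) and 49.0 CPM (HFD; log2 -0.29 ± 0.42, adjusted p = 0.772). At 22 weeks its medians were 116 and 88.6 CPM (log2 -0.92 ± 0.35, adjusted p = 0.329), a value that was -0.39 without RFD replicate 3, where Slc2a5 reached 663 CPM. Khk had medians of 162 and 111 CPM at 9 weeks (log2 -0.62 ± 0.25, adjusted p = 0.177; 0.0883 with the number series as a term) and of 221 and 175 CPM at 22 weeks (log2 -0.57 ± 0.26, adjusted p = 0.453), and the latter was -0.30 without RFD replicate 3. G6pc was at 0 reads in 5 of 45 libraries and its highest value was 34.2 CPM. Its log2 fold changes of -0.43 ± 0.75 and 0.39 ± 0.51 were smaller than their errors.

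In counts, 1 of the 9 genes was called lower at 9 weeks, when 3.32% of the 14020 genes tested were called in either direction and 1.33% lower. At 22 weeks 2 of the 9 were called lower, when 0.792% of all genes were called in either direction and 0.357% lower. No member was called higher, against 2.0% and 0.435% of all genes. At an unadjusted p under 0.05, 5 members were lower at 9 weeks and 6 at 22 weeks, against 8.27% and 5.61% of all genes. All 9 log2 fold changes were below 0 at 9 weeks, and 7 of 9 were at 22 weeks. Their medians were -0.62 and -0.92, whereas the medians over all genes were -0.05 and -0.03. Every HFD library lay under the RFD median for 3 members at 9 weeks and 3 at 22 weeks, against 2.85% and 2.36% of all genes. Because the members were chosen with earlier results of these data known, these counts describe them and are no independent test.

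**Figure D2:**
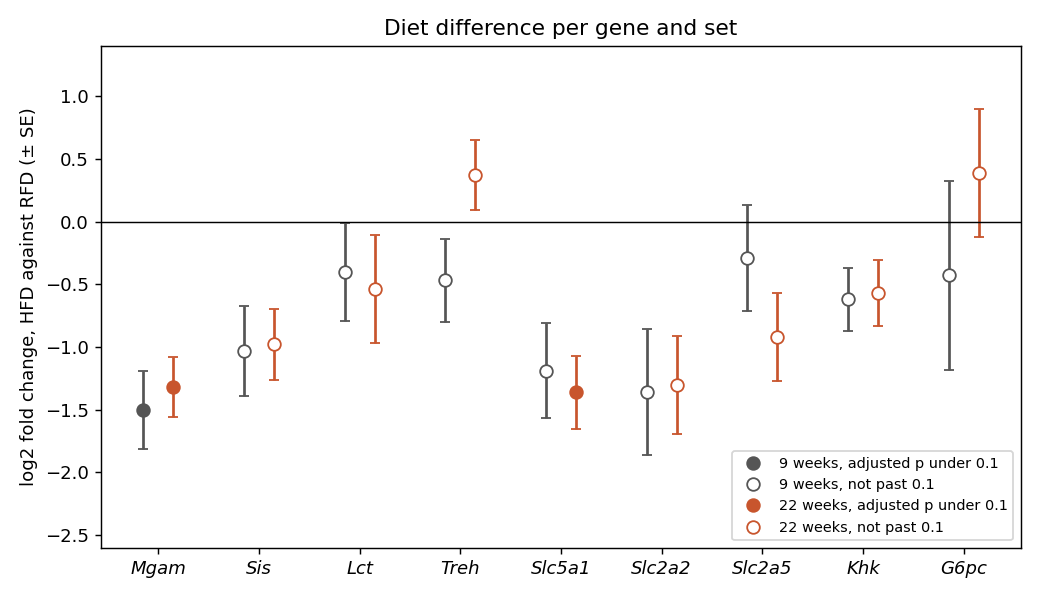
Log2 fold change of HFD against RFD with its standard error for each gene at 9 weeks (grey) and 22 weeks (orange); filled points passed an adjusted p of 0.1. Mgam passed in both sets and Slc5a1 at 22 weeks, and Treh and G6pc were below 0 at 9 weeks and above 0 at 22 weeks without passing in either.

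The diet difference was compared between sets by an interaction term. No member passed after adjustment (adjusted p = 1.0 for all 9), and none of the 14020 genes did. At an unadjusted p under 0.05, 451 genes (3.22%) differed, among them Treh with an interaction of 0.89 ± 0.44 on the log2 scale (unadjusted p = 0.0471). For Mgam the interaction was 0.24 ± 0.40 and for Slc5a1 it was -0.13 ± 0.49. The call of Slc5a1 at 22 weeks alone therefore does not show a difference between the sets, and the errors are too wide to exclude one.

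Because enterocytes are the known site of these genes, each member was also measured relative to the 15 brush border genes, none of which is a member. That list itself had 1 gene called lower at 9 weeks, the peptide transporter Slc15a1 (log2 -1.45 ± 0.39, adjusted p = 0.0662, called in 13 of 22 fits without a library), and none at 22 weeks. Its median log2 fold change was -0.39 at 9 weeks and -0.02 at 22 weeks. Summed, it ranged from 911 to 3103 CPM (RFD) and 714 to 2453 CPM (HFD) in the 9-week set, and from 1185 to 8990.1 CPM (RFD) and 1807 to 6714 CPM (HFD) in the 22-week set. Of the defining enterocyte markers, Alpi (intestinal alkaline phosphatase) had a log2 fold change of -0.63 ± 0.32 at 9 weeks (adjusted p = 0.301) and 0.30 ± 0.28 at 22 weeks (adjusted p = 0.772). Anpep (aminopeptidase N) had -0.04 ± 0.24 and 0.15 ± 0.28 (adjusted p = 0.955 and 0.903).

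Relative to this list, 4 members were lower on HFD at 9 weeks and 6 at 22 weeks (two-sided permutation test with 100000 resamples, adjusted over 18 tests). The test exchanged single mice and took no account of shared cages, which were not labelled. The same 4 and 6 had an unadjusted p under 0.05, as had 1.99% and 2.48% of the 14005 genes outside the list in that direction. Mgam showed the clearest separation. Its log2 ratio to the list was -2.49 ± 0.47 (SD, n = 11) on RFD and -3.88 ± 0.79 (n = 11) on HFD at 9 weeks, a difference of -1.39 with an adjusted p of 6e-05 that rests on the smallest p these permutations give. All 11 HFD libraries lay below all 11 RFD libraries, which was true of 0.00714% of the 14005 genes outside the list, that is, of Mgam alone. At 22 weeks the ratio was -3.20 ± 0.35 on RFD and -4.58 ± 0.47 on HFD (difference -1.38, adjusted p = 6e-05), and 10 of 12 HFD libraries lay below every RFD library.

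Slc5a1 relative to the list differed by -1.20 at 9 weeks (adjusted p = 0.00027) and by -1.38 at 22 weeks (adjusted p = 6e-05). At 22 weeks all 12 HFD libraries lay below all 11 RFD libraries, with -1.74 as the highest HFD value and -1.68 as the lowest RFD value; 0.0143% of genes, Slc5a1 and Mbl2, were separated in that way. Sis differed by -0.96 and -0.98 (adjusted p = 0.0009 and 0.000216) and Slc2a2 by -1.40 and -1.47 (adjusted p = 0.00728 and 0.000216). Slc2a5 and Khk were lower relative to the list at 22 weeks, by -0.68 and -0.52 (adjusted p = 0.00301 and 0.0127), and at 9 weeks their differences were -0.07 and -0.39 (adjusted p = 0.883 and 0.139). Treh differed by -0.22 at 9 weeks and 0.30 at 22 weeks, and Lct by -0.14 and -0.38, none of them past the threshold (adjusted p = 0.422, 0.227, 0.683 and 0.227).

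**Figure D3:**
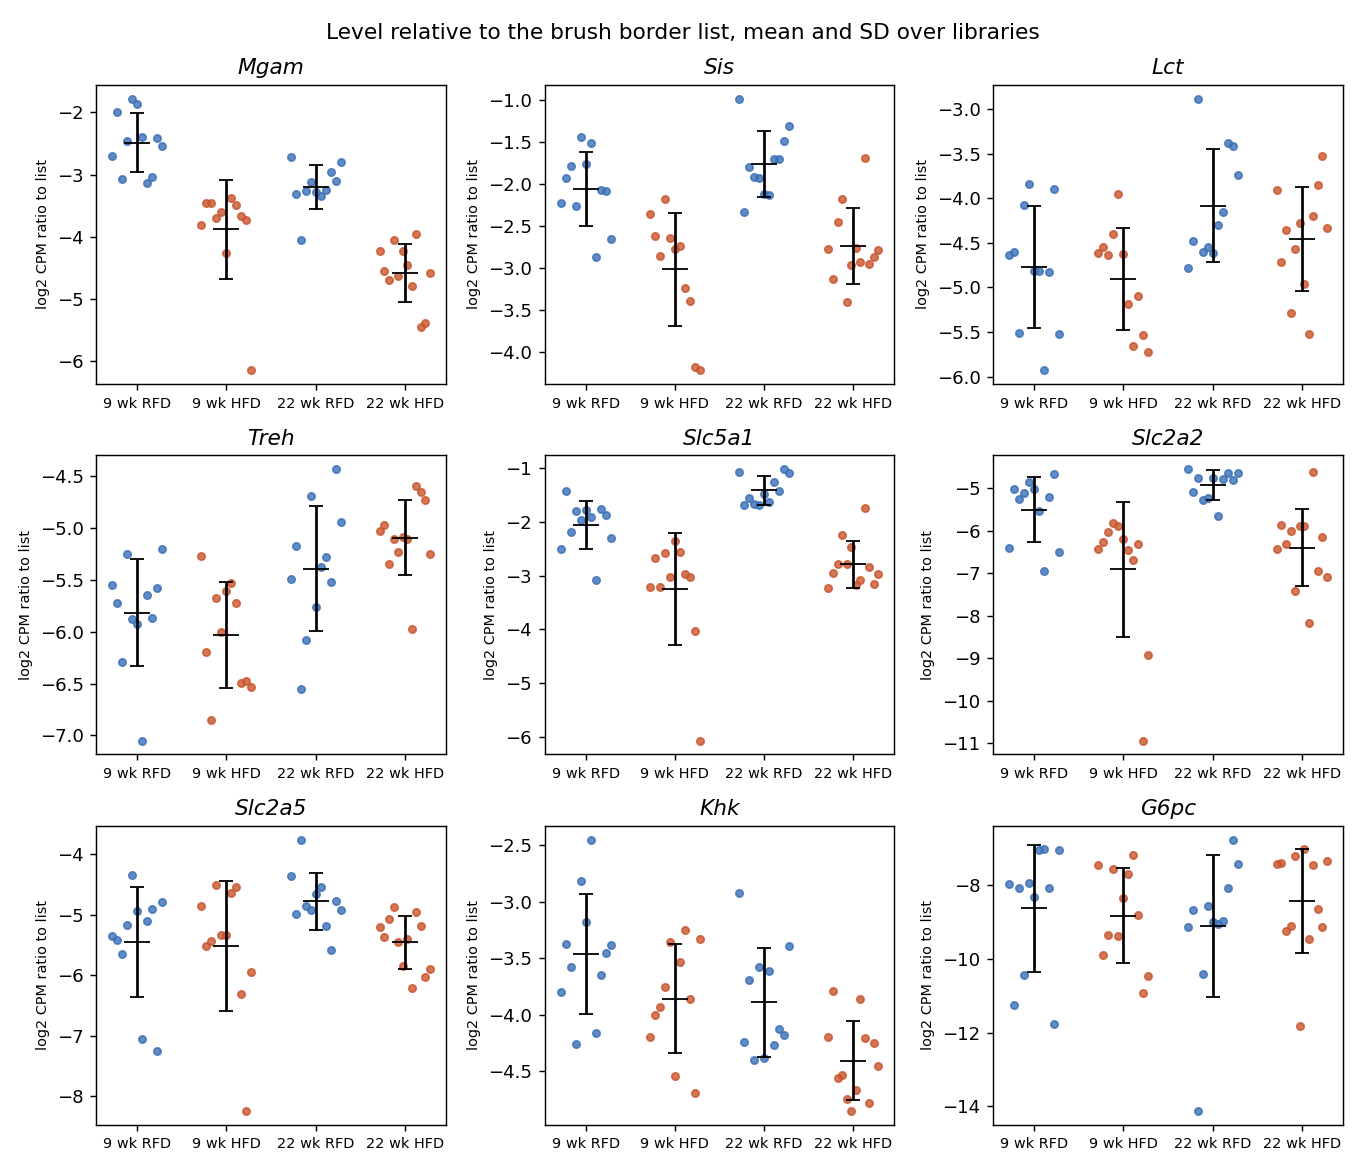
Log2 ratio of each gene's CPM to the summed CPM of 15 brush border genes, with a pseudocount of 0.5 on both, by feeding time and diet; points are libraries and bars are the mean and SD. HFD and RFD do not overlap for Mgam at 9 weeks and for Slc5a1 at 22 weeks, and overlap for Treh in both sets.

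With 10 lipid absorption genes of enterocytes as the reference, the differences of Mgam were -1.69 and -1.68, and with Alpi and Anpep alone they were -1.40 and -1.65. For Mgam, 9 of 11 (lipid genes) and 8 of 11 (Alpi and Anpep) HFD libraries lay below every RFD library at 9 weeks, and for Slc5a1 7 of 12 did at 22 weeks with the lipid genes. Some calls depended on the reference. Khk was lower at 9 weeks with the lipid genes (adjusted p = 0.0273), Lct was lower at 22 weeks with Alpi and Anpep (adjusted p = 0.021), and the 22-week difference of Treh was 0.0 and 0.02 with these references.

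Lipid absorption genes went in both directions. Rbp2 (vitamin A handling) rose in both sets (log2 1.32 ± 0.31 and 1.58 ± 0.29, adjusted p = 0.0432 and 0.00755), and Mttp (assembly of lipoproteins) rose at 22 weeks (log2 1.04 ± 0.25, adjusted p = 0.0614, called in 16 of 23 fits without a library and 5 of 10 other fits). Apoc3, an apolipoprotein, fell at 9 weeks (log2 -1.56 ± 0.29, adjusted p = 0.0151) and had -1.07 ± 0.32 at 22 weeks (adjusted p = 0.167). Apoa1, another apolipoprotein, had -0.78 ± 0.25 at 9 weeks (adjusted p = 0.106). The 9-week calls of Rbp2 and Apoc3 each held in 7 of 11 other fits (adjusted p up to 0.533 and 0.278). Of the 10 lipid genes, 5 were lower in any size at 9 weeks and 3 at 22 weeks. In calls, 1 was higher and 1 lower at 9 weeks and 2 higher at 22 weeks, with median log2 fold changes of 0.04 and 0.40.

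Across libraries, the members followed the enterocyte list closely. After centring on the 4 group means, Pearson's r with the summed brush border list over 45 libraries was 0.729 to 0.863 for 8 members, with Spearman's rho between 0.668 and 0.843. Each of these had an adjusted p of 2.25e-05 over 18 relations by permutation within groups, resting on the smallest p the permutations give. G6pc was the exception, with r = 0.108 and rho = 0.165 (adjusted p = 0.537 and 0.335). Without the 2 libraries farthest from the median of the list, r of the 8 genes was 0.622 to 0.828, and within the 3 number series it was 0.594 to 0.917.

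Sis and Slc5a1 were the pair of members most alike (rho = 0.913 over 45 centred libraries), followed by Slc5a1 and Slc2a2 (0.9). Among the genes outside the list that were most like Sis were Adh6a, Mme, Cyp3a11 and Abcg5, with rho from 0.893 to 0.806. Of these, Mme is a peptidase of the brush border.

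With the summed list of 19 tuft cell markers, the same members had negative or weak relations. Pearson's r was -0.38 for Mgam, -0.338 for Sis and -0.344 for Slc5a1 (adjusted p = 0.0585, 0.0639 and 0.0776), with rho of -0.385, -0.383 and -0.315 (adjusted p = 0.0191, 0.025 and 0.0605). It was strongest for Khk, with r = -0.548 and rho = -0.614 (adjusted p = 0.0003 and 2e-05). These relations depended on the unit: on log2(TPM + 1), r was 0.122 for Mgam, 0.118 for Sis and 0.161 for Khk. They also differed between number series, with r of Mgam at 0.154, -0.403 and -0.709.

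In all 4 groups, the library with the most tuft marker RNA had the lowest Mgam and the lowest Slc5a1 of its group in CPM. On HFD at 9 weeks this was replicate 64, with 25569 CPM of tuft markers and 1675 TPM of Dclk1, where Mgam stood at 9.62 CPM, Slc5a1 at 10.1 CPM and Slc2a2 at 0.962 CPM. On RFD at 22 weeks it was replicate 40, which was the lowest of its group in 7 of the 9 members. On HFD at 22 weeks it was replicate 50, lowest in 4 members, and on RFD at 9 weeks it was replicate 21, lowest in 5. In TPM the same libraries were lowest in 2, 3, 7 and 6 members, in the order 9-week RFD, 9-week HFD, 22-week RFD and 22-week HFD. In 9-week RFD replicate 21 Mgam ranked 3 from the lowest in TPM, and G6pc was the highest of its group. That library and 22-week HFD replicate 50 had reads on the fewest genes of their groups, 11196 and 12693. The share of all genes that were lowest in these 4 libraries was not measured. The library richest in the brush border list, RFD replicate 3 at 22 weeks with 8990.1 CPM, was by contrast the highest of its group in Sis, Lct, Slc5a1, Slc2a2, Slc2a5 and Khk. Mgam was highest in RFD replicate 30 (563 CPM, against 541 in replicate 3) and Treh in RFD replicate 23. G6pc had 0 reads in replicate 3.

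**Figure D4:**
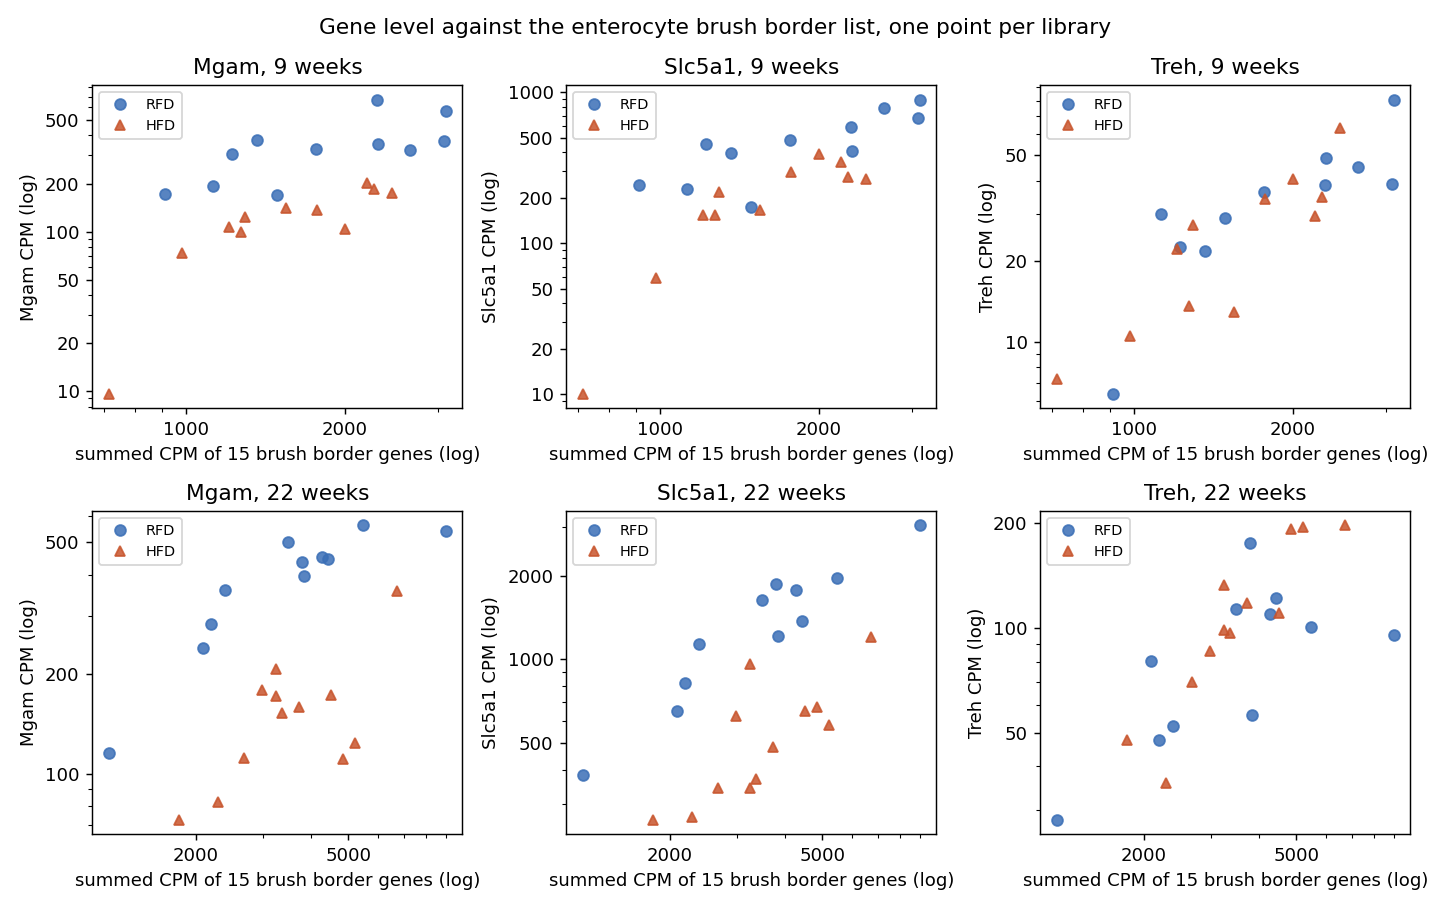
Level of Mgam, Slc5a1 and Treh (CPM, log axis) against the summed CPM of 15 brush border enterocyte genes (log axis) at 9 and 22 weeks; points are libraries, circles RFD and triangles HFD. All 3 genes rise with the list; relative to the list, all HFD libraries lie below all RFD libraries for Mgam at 9 weeks and Slc5a1 at 22 weeks, and the diets mix for Treh.

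When the summed list was added to the edgeR model as a covariate, the genes called lower were Mgam, Slc5a1 and Sis at 9 weeks and these 3 with Slc2a2 at 22 weeks. In that fit 2.95% and 0.442% of all genes were called lower. With tuft markers as the covariate Mgam alone stayed called at 9 weeks (log2 -1.85), and Mgam and Slc5a1 stayed called at 22 weeks, when 0.0428% and 0.621% of all genes were called lower. Whether the reads of these genes came from enterocytes carried along in the sort or from tuft cells was not tested, since sorted pools hold no information on single cells. Other cell type markers differed between the diets as follows, and their part in the members' values was not tested. Of 19 tuft markers, 18 were lower on HFD in any size in both sets, with median log2 fold changes of -0.95 and -0.37 and no call. All 8 Paneth markers were higher in any size in both sets (medians 2.51 and 1.27) with no call. Of 7 stem and cycling markers, 2 were called higher at 9 weeks (list medians 1.19 and 0.57), and of 8 enteroendocrine markers 2 were called lower at 22 weeks (list medians 0.45 and -3.02). Goblet markers had medians of 0.64 and 0.84 and T cell markers of -1.14 and -1.5, with no call, and 1 of 6 eosinophil markers passed the filter.

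Other genes of sugar handling showed few calls. None of 14 other hexose and polyol transporters passed in either set. Slc5a4b, a sodium-coupled relative of SGLT1, had a log2 fold change of 1.65 ± 0.47 at 22 weeks (adjusted p = 0.135) and of 1.08 ± 0.81 at 9 weeks (adjusted p = 0.5), opposite in sign to Slc5a1. Slc2a7, whose gene lies next to Slc2a5 on chromosome 4, had -1.45 ± 0.52 at 22 weeks (adjusted p = 0.279), Slc2a10 -1.09 ± 0.37 at 9 weeks (adjusted p = 0.128), and the inositol carrier Slc5a11 -0.70 ± 0.38 at 9 weeks (adjusted p = 0.334). The median over the list was -0.45 at 9 weeks and -0.22 at 22 weeks.

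Among 13 genes of fructose breakdown and glucose formation, 1 rose and 1 fell at 9 weeks and none was called at 22 weeks. Pck2, the mitochondrial form of phosphoenolpyruvate carboxykinase, rose from a mean of 8.33 to 34 CPM at 9 weeks (log2 2.04 ± 0.44, adjusted p = 0.0321). That call held in 7 of 11 other fits (adjusted p up to 0.479), and the log2 fold change at 22 weeks was 0.08 ± 0.44 (adjusted p = 0.972). Pklr, the pyruvate kinase of liver and intestine and a known target of ChREBP, fell at 9 weeks (log2 -0.82 ± 0.24, adjusted p = 0.0777), a call that held in 6 of 22 fits without a library and 7 of 11 other fits, and had -0.15 ± 0.21 at 22 weeks (adjusted p = 0.862). Sord (0.62 ± 0.25) and Fbp2 (-0.48 ± 0.25) did not pass at 9 weeks (adjusted p = 0.187 and 0.313). The medians of the list were -0.38 and -0.15.

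None of 12 other sugar-cleaving and galactose enzymes was called. The smallest p-values belonged to the lysosomal galactosidase Glb1 at 9 weeks (log2 0.72 ± 0.23, adjusted p = 0.101) and the neutral glucosidase Ganc at 9 weeks (log2 -1.28 ± 0.46, adjusted p = 0.147). Galt had -0.50 ± 0.20 at 22 weeks (adjusted p = 0.358). The medians of this list, 0.05 and 0.25, lay above 0, unlike those of the 9 members.

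Of 14 regulators and sugar sensors, Cdx2, a transcription factor of intestinal identity known to act on the Sis promoter, rose at 9 weeks from a mean of 62.3 to 116 CPM (log2 0.90 ± 0.21, adjusted p = 0.0472). Without HFD replicate 80 its log2 fold change was 0.77 (adjusted p = 0.116), and the call held in 6 of 11 other fits (adjusted p up to 0.479). At 22 weeks it had 0.67 ± 0.37 (adjusted p = 0.544). Hnf4g had 0.98 ± 0.39 and 0.85 ± 0.27 (adjusted p = 0.177 and 0.212), Cdx1 -0.78 ± 0.31 at 22 weeks (adjusted p = 0.36), and the glucose-responsive factor Mlxip -0.63 ± 0.34 at 9 weeks (adjusted p = 0.34). Named after their values were seen, Mlxipl, which encodes ChREBP, had -0.37 ± 0.26 and -0.08 ± 0.36, and Txnip, a known ChREBP target, -0.21 ± 0.21 and 0.06 ± 0.25, none past the threshold (adjusted p = 0.456, 0.965, 0.623 and 0.961). The list medians were -0.22 and -0.01.

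**Figure D5:**
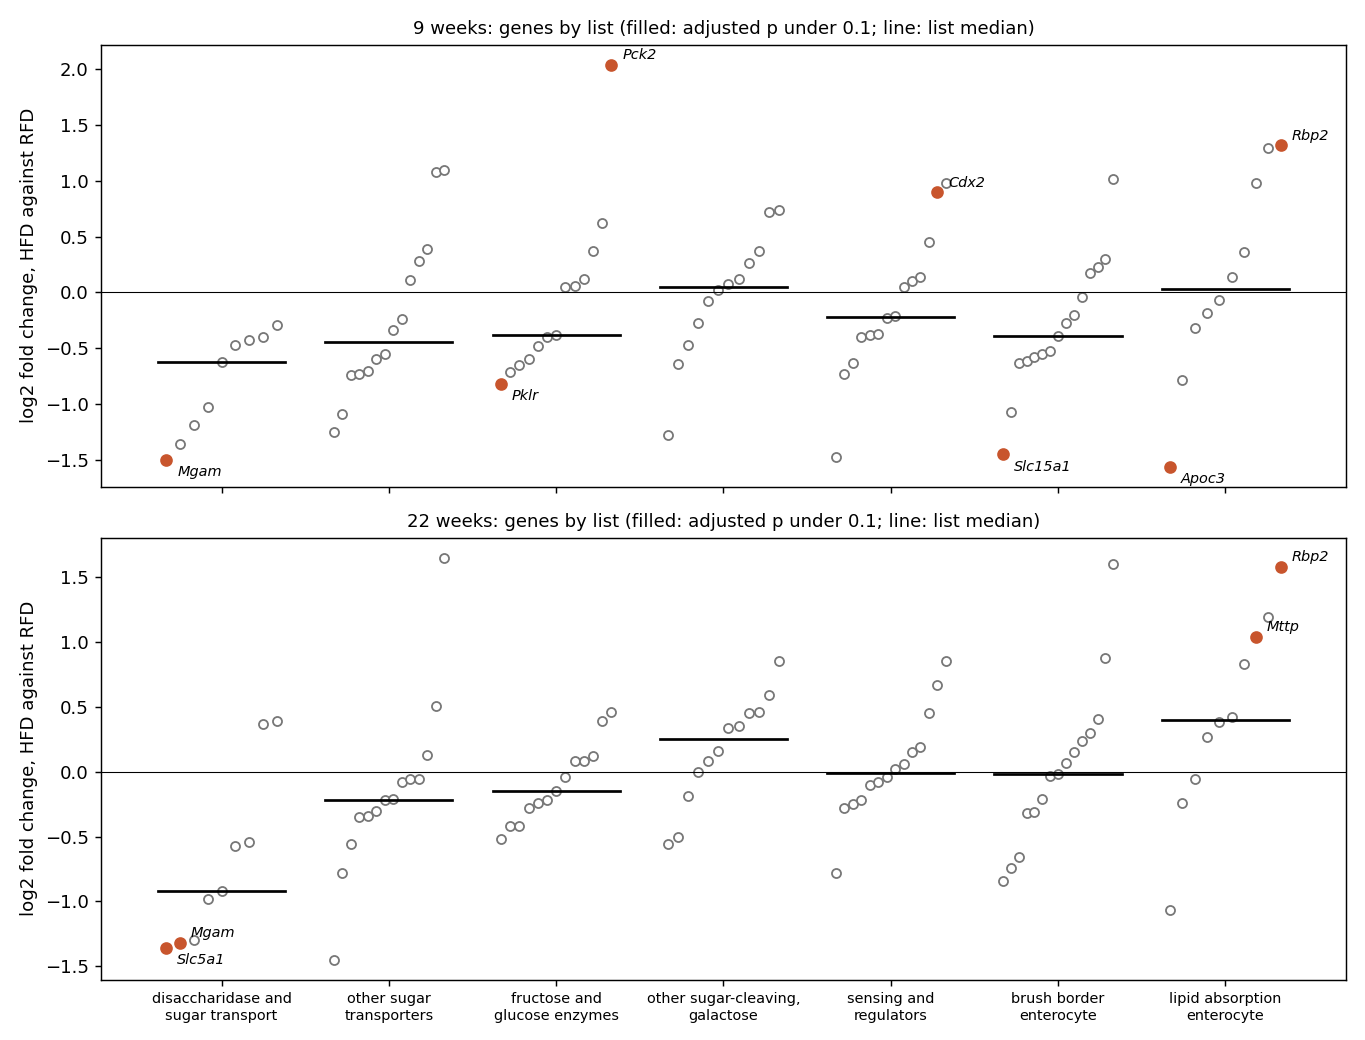
Log2 fold change of HFD against RFD for every tested gene of 7 lists at 9 weeks (top) and 22 weeks (bottom); each point is a gene, filled where the adjusted p was under 0.1, and lines are list medians. The 9 disaccharidase and sugar transport genes have the lowest median of the 7 lists drawn (-0.62 and -0.92), which leave out the tuft and other cell type markers, and called genes of the lipid absorption list lie above 0 except for Apoc3 at 9 weeks.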

How the data were processed

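Tuft cells (sorted per the labels as EpCAM+CD45+Siglec-F+; the study's methods also speak of leaving out CD45-bearing cells) were sequenced by Smart-seq2. Per the labels and methods, the authors trimmed reads with cutadapt 1.15, aligned them to GRCm38 with STAR 2.6.0 and estimated expected counts and TPM with RSEM (version not given in the sources used here); both tables were deposited, and deposited FPKM were not used. The protocol does not keep strand, so reads of overlapping antisense genes count towards a member. The authors' weighting by cell type deconvolution was not repeated. The 24 columns of the deposited tables that match no labelled sample were not used.

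Expected counts as deposited were rounded (8.79% were not whole), rows were named by GENCODE vM21, and genes with more than 5 reads in at least 6 of 45 libraries were kept. edgeR 4.0.16 (TMM, robust quasi-likelihood test, Benjamini-Hochberg over 14020 genes, threshold 0.1) compared diets within each set; CPM were scaled by the same factors. limma 3.58.1, DESeq2 1.42.0 and other alternatives follow at the end. Permutation tests were run in numpy 2.4.6. Scripts were tested on simulated data. There, 58% (9 weeks) and 62% (22 weeks) of genes with a true log2 change of 1.5 were recovered. Of all simulated calls, 25 of 168 and 24 of 178 were false. No 2 libraries were identical. Replicates are single mice, up to 4 of a cage, and cages were not labelled. All tests therefore treated mice as independent, and their p-values take no account of cage. Named genes were all 9 members, and of each other sugar list the called genes, filled up to 4 by smallest p. Of genes other than the members, the 5 most like Sis were added. Some genes that this rule names are not reported here. Marker lists of 8 cell types, with 2 lists for enterocytes, were also measured. Members and lists were chosen with earlier results of these data known.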

Additional observations from a re-analysis of the deposited data

How the results depend on the processing

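Mgam was lower on HFD in every fit run in both sets. At 9 weeks 1 of the 9 genes was called lower, and 5 were with DESeq2, 4 with no filter on low counts, 4 with the number series as a term, 3 with the brush border covariate, 3 with all 45 libraries in 1 fit and 0 with limma on log2(TPM + 1) or log2(TPM + 0.1) or without the libraries under 100 TPM of Dclk1 (an alternative chosen after seeing the data). At 22 weeks 2 were called lower, and 4 with DESeq2, the number series or the brush border covariate and 1 with either limma fit. Over all genes the 466 calls at 9 weeks became 1534 with DESeq2, 1698 with no filter, 946 with the brush border and 15 with the tuft covariate, 9 and 5 with limma at pseudocounts 1 and 0.1, 290 without libraries under 500000 reads and 2 without low Dclk1. The 111 calls at 22 weeks became 351 with DESeq2, 434 with no filter, 185 with the number series, 182 with the tuft covariate, 63 with all 45 libraries, and 51 and 31 with limma; no library there had under 500000 reads. The interaction had 0 calls with edgeR and with DESeq2 (451 genes at an unadjusted p under 0.05) and 65 with no filter. Leaving out 1 library gave 59 to 1996 calls at 9 weeks and 58 to 667 at 22 weeks, with 1 to 4 and 2 to 4 members lower. At 9 weeks members called were 4 without HFD replicate 64 and 3 without RFD replicate 20. They were 2 without RFD replicate 40, HFD replicate 60 or HFD replicate 63. Of all 14020 genes, 964, 612, 263, 166 and 403 were called lower in these fits, in that order, against 186 in the main fit. At 22 weeks members called were 4 without RFD replicate 1 or HFD replicate 31 and 3 without RFD replicate 40. There 187, 56 and 29 of all genes were called lower, in that order, against 50 in the main fit. Directions turned for Slc2a5 at 9 weeks (0.02 with the brush border covariate), Lct at 22 weeks (-0.72 to 0.05 without 1 library), Pck2 at 22 weeks (-0.17 with the tuft covariate, -0.07 without low Dclk1, -0.07 to 0.43 without 1 library) and G6pc relative to the brush border list at 9 weeks (0.02 without low totals). Of 18 relations with marker lists 14 passed, and 9 on log2(TPM + 1), where r with tuft markers was 0.122 for Mgam, 0.118 for Sis, 0.17 for Lct, 0.332 for Treh, 0.101 for Slc5a1, 0.161 for Khk and 0.0964 for G6pc. The cause of these changes was not tested.

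Diet groups within a set share no replicate numbers, so pairing could be tried only between sets. Among 16 same-numbered pairs the correlation of deviations ran from -0.365 to 0.345 (median -0.161, 2 over 0.1), and 1 of 32 libraries correlated best with its own number. With the replicate block the interaction had 0 calls, and that of Mgam was -0.38, against -0.33 in the same libraries without the block. In all 45 libraries the interaction of Mgam was 0.24 ± 0.40, so its direction also turned with the libraries used.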
